A study of Mus musculus with 12 samples.

Results

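Genes of cholesterol and fatty acid synthesis were measured in mouse dendritic cells and macrophages from bone marrow cultures, with and without lipopolysaccharide (LPS), a bacterial ligand of Toll-like receptor 4. The 31 genes were chosen by name as enzymes, controllers and 1 carrier of these pathways, with earlier results of these data known. Counts set against all genes below therefore describe the chosen genes and are no independent test of the pathways. Of the 31 genes, 30 were found on the arrays, among 19938 genes measured in all. Acat2 was not found and was dropped. Of the 30 genes, 20 made up the sterol arm (Hmgcs1, Mvk, Pmvk, Mvd, Idi1, Fdps, Fdft1, Sqle, Lss, Cyp51, Msmo1, Nsdhl, Hsd17b7, Ebp, Sc5d, Dhcr7, Insig1, Scap, Srebf2 and Stard4). The other 10 made up the fatty acid arm (Acly, Acss2, Acaca, Fasn, Elovl6, Scd1, Scd2, Fads1, Fads2 and Srebf1). Each gene was read from a probe set with 1 gene symbol, and from the brightest such probe set over all 12 arrays where there were several.

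The 4 groups held 3 arrays each: GM-DC with LPS, GM-DC left unstimulated, GM-MF with LPS and GM-MF left unstimulated. All came from tibia and femur marrow of C57B/6 mice kept for 6 days in 20 ng/ml GM-CSF, a myeloid growth factor, so every group carried that treatment. The LPS groups received 10 ng/ml for 4 hours. GM-DC cells are labelled dendritic and GM-MF cells macrophage; how they were separated, the age and number of the mice and whether replicates came from separate cultures are not given in the sources used here, so the p-values reflect no more than array-to-array spread within a group, and that spread may be technical.

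Cholesterol is built from acetyl-CoA by way of mevalonate, farnesyl diphosphate, squalene and lanosterol. The transcription factor SREBP2, encoded by Srebf2, drives most genes of that route after SCAP has carried it out of the endoplasmic reticulum, and INSIG1 holds SCAP back when sterols are plentiful. SREBP1, encoded by Srebf1, acts mainly on fatty acid genes, whose products make acetyl-CoA in the cytosol, build palmitate, lengthen it and add double bonds. Macrophages and dendritic cells use these lipids for membranes, lipid droplets and signalling molecules, and Toll-like receptor signals are known to change their synthesis.

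Values are the deposited RMA expression values, which are on a log scale taken here as log2, so a difference of 1 is read as 2-fold. The array medians lay between 4.41 and 4.54, and arrays of a group correlated at 0.993 to 0.996 over all genes. The labels were set beside markers chosen with earlier results of these data known, so the markers are no independent check of them. Of the dendritic cell markers, 8 of 8, Flt3 and Zbtb46 among them, were higher in GM-DC than in GM-MF with and without LPS. Of all genes, 20.9% were higher with LPS and 18% without it. Of the macrophage markers, 7 of 7, Csf1r and Fcgr1 among them, were lower in both states, against 15.4% and 16.2% of all genes. Means over the B cell, T and NK cell and erythroid marker lists lay between 3.67 and 4.32 on every array, below the array medians. With LPS, 2 of 6 B cell markers were higher and 1 lower in GM-DC, and 2 of 8 T and NK cell markers were higher. There, 1 of 10 neutrophil markers was higher and 6 were lower. For the 11 stromal and adipocyte markers, 0 were higher and 3 lower, and for the 8 mast cell and basophil markers 0 and 1. Of all genes, 20.9% were higher and 15.4% lower in that comparison. Means over the stromal and adipocyte list lay between 4.85 and 5.30, above the array medians. They lay below the mean over all genes, which was 5.31 to 5.39 by array. Means over the neutrophil list lay above the array medians and above the mean over all genes. The mean over 10 neutrophil markers lay between 5.46 and 5.56 in GM-DC with LPS, 5.48 and 5.55 in unstimulated GM-DC, 5.89 and 5.91 in GM-MF with LPS and 5.61 and 5.80 in unstimulated GM-MF. Differences were tested with limma over all genes, and a gene is said to have risen or fallen where the Benjamini-Hochberg adjusted p was under 0.05; ± after a difference is the standard error of that fit.

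In GM-MF, LPS lowered most of the sterol arm. Of its 20 genes 15 fell, none rose and 5 were not called, against 10.8% of all genes that fell in that comparison, and 11 of the 15 fell at least 2-fold, against 1.37% of all genes (1.8% rose that far). At an unadjusted p under 0.05, 17 of the 20 differed, against 26.9% of all genes. The median difference over the arm was -1.14 on the log2 scale, against -0.02 over all genes. The mean of the 20 log2 values was 7.17, 7.07 and 6.97 on the GM-MF arrays with LPS, against 8.04, 7.79 and 7.98 on the unstimulated GM-MF arrays. RNA of a whole sample cannot tell a lower level in each cell from fewer cells that express the gene.

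The early, mevalonate steps were split. Hmgcs1, which makes the HMG-CoA that enters the route, read 7.96, 7.69 and 7.60 in GM-MF with LPS, against 9.26, 9.09 and 9.05 in unstimulated GM-MF. All 3 LPS arrays thus lay more than 1 log2 unit below all 3 unstimulated ones, and the difference was -1.38 ± 0.16 (2.60-fold lower, adjusted p = 1.78e-05), the 100th lowest of 19938. Mvd, the decarboxylase that ends the mevalonate steps, read 7.03, 7.03 and 6.72 in GM-MF with LPS, against 8.27, 8.18 and 8.10 in unstimulated GM-MF, without overlap (2.39-fold lower, adjusted p = 1.51e-06). Fdps, which joins isoprene units into farnesyl diphosphate, fell 2.29-fold (adjusted p = 0.00096). Mvk, mevalonate kinase, fell 1.32-fold (adjusted p = 0.0288). The other 2 enzymes of these steps were not called. Pmvk, phosphomevalonate kinase, differed by -0.34 (95% interval -0.63 to -0.04, adjusted p = 0.12). Idi1, the isomerase that prepares the isoprene units for joining, differed by 0.01 (95% interval -0.25 to 0.27, adjusted p = 0.977): it read 8.53, 8.52 and 8.47 with LPS, against 8.65, 8.22 and 8.62 without it.

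From squalene on, 9 of 10 enzymes fell in GM-MF. Sqle, the epoxidase that commits squalene to sterols, read 6.91, 6.91 and 6.85 with LPS, against 8.49, 8.32 and 8.42 in unstimulated GM-MF. Its 3 LPS arrays were close together and far below the others, and the difference of -1.52 ± 0.17 (2.87-fold lower, adjusted p = 1.76e-05) was the largest fall in the arm. Hsd17b7, a ketosteroid reductase of the demethylation steps, read 6.58, 6.33 and 6.51 with LPS, against 7.98, 7.67 and 8.01 without it (2.66-fold lower, adjusted p = 1.7e-05). Msmo1, the methylsterol oxidase of the same steps, read 7.97, 7.78 and 7.82 with LPS, against 9.41, 8.76 and 9.41 without it (2.53-fold lower, adjusted p = 2.84e-05). In neither gene did the groups overlap. Sc5d and Lss, the sterol desaturase and the cyclase that closes lanosterol, both fell 2.43-fold. Fdft1, squalene synthase, fell 2.29-fold, Nsdhl, another enzyme of the demethylation steps, 2.14-fold, Dhcr7, which makes cholesterol from 7-dehydrocholesterol, 1.68-fold, and Cyp51, the lanosterol demethylase, 1.56-fold, with adjusted p from 5.61e-05 to 0.00483 in these 4 genes. Ebp, the sterol isomerase, was the exception, with a difference of -0.33 (95% interval -0.68 to 0.01, adjusted p = 0.206).

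Among the controllers and the carrier, 2 of 4 genes fell. Srebf2 fell 1.38-fold in GM-MF (adjusted p = 0.0088), to 8.27, 8.12 and 8.07 with LPS, against 8.66, 8.57 and 8.63 without it. Scap differed by -0.02 (95% interval -0.25 to 0.21, adjusted p = 0.947) and Insig1 by -0.30 (95% interval -0.59 to -0.01, adjusted p = 0.164). Stard4, which carries cholesterol between membranes, read 6.04, 6.47 and 6.19 with LPS, against 7.45, 7.41 and 7.37 without it, a 2.27-fold fall (adjusted p = 1.91e-05). Of the 15 falls, 14 passed whichever array was left out and under the other ways of processing tried; Mvk did not pass without GM-MF LPS replicate 1, unstimulated GM-MF replicate 1 or unstimulated GM-MF replicate 2 (-0.40 to -0.29), with cyclic loess (-0.27, adjusted p = 0.132) or in a fit on the 6 GM-MF arrays alone (adjusted p = 0.0609). Of 26 cell cycle genes, 2 rose and 9 fell in the same comparison, against 6.54% and 10.8% of all genes. Their mean was 5.43, 5.45 and 5.31 with LPS, against 5.76, 5.61 and 5.59 without it. Of the 8 dendritic cell markers 6 rose in GM-MF, 4 of them at least 2-fold, against 6.54% and 1.8% of all genes. Their median difference was 1.00, and their mean lay between 6.29 and 6.67 with LPS, against 5.35 and 5.72 without it. Ccr7, a chemokine receptor of migrating dendritic cells, rose by 2.47, whereas Flt3, the receptor that supports dendritic cell development, differed by -0.19 (adjusted p = 0.512). Of the 7 macrophage markers 2 rose and 1 fell, against 6.54% and 10.8% of all genes. Of the markers of other cells, 1 of 10 neutrophil, 1 of 8 mast cell and basophil and 1 of 11 stromal and adipocyte genes rose: Camp by 0.63, Hdc by 3.43 and Pdgfrb by 0.62. These are counts of 1 gene each, against 6.54% of all genes that rose, and nothing is read from them about the lists. The mean of the mast cell and basophil list lay between 4.09 and 4.12 with LPS, against 3.58 and 3.70 without it, while Cpa3, a mast cell protease, differed by 0.08 (adjusted p = 0.778). The part of these genes in the result was not tested.

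In GM-DC the sterol arm moved little with LPS. Of the 20 genes 2 rose, 2 fell and 16 were not called, against 5.23% of all genes that rose and 4.49% that fell, and none reached 2-fold, against 1.65% of all genes that rose and 0.431% that fell so far. At an unadjusted p under 0.05, 6 of 20 differed, against 19.5% of all genes. The median difference was -0.07, against -0.01 over all genes. The mean of the arm was 7.92, 7.82 and 7.98 on the GM-DC arrays with LPS, against 8.03, 7.80 and 8.14 on the unstimulated ones, which overlap. The differences of the 16 genes not called lay between -0.33 and 0.20, and their 95% intervals between -0.63 and 0.54.

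The 2 genes that rose were Idi1 and Stard4. Idi1 read 10.89, 10.84 and 10.96 in GM-DC with LPS, against 10.36, 10.30 and 10.58 in unstimulated GM-DC, a rise of 0.48 ± 0.12 (adjusted p = 0.0176) without overlap. Stard4 read 7.84, 7.73 and 7.56 with LPS, against 7.34, 6.96 and 7.36 without it, a rise of 0.49 ± 0.13 (adjusted p = 0.0302), again without overlap. Dhcr7 fell 1.76-fold (adjusted p = 0.00331), to 5.12, 5.10 and 5.29 with LPS, against 6.04, 5.98 and 5.95 without it. Mvd fell 1.33-fold (adjusted p = 0.0283). By contrast Hmgcs1, at 9.22, 8.88 and 9.23 with LPS against 9.15, 8.83 and 9.46 without it, differed by -0.04 (95% interval -0.37 to 0.29, adjusted p = 0.943). Only Dhcr7 was called whichever array was left out. Mvd and Idi1 each missed the threshold without any 1 of 4 arrays (differences from -0.41 to -0.34 and from 0.43 to 0.49), and Stard4 without any 1 of 3 (0.36 to 0.48). Idi1 also missed it with its dimmer probe set (0.50, adjusted p = 0.0562), and Stard4 in a fit on the 6 GM-DC arrays alone (adjusted p = 0.0609). Srebf2 was not called in GM-DC (-0.33, 95% interval -0.57 to -0.09, adjusted p = 0.0909), though its groups did not overlap. It was called among genes above the median (adjusted p = 0.0439) and with trend and robust eBayes (adjusted p = 0.0465). Without unstimulated GM-DC replicate 2 Srebf2 was called as well (-0.43, adjusted p = 0.0339).

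**Figure D1:**
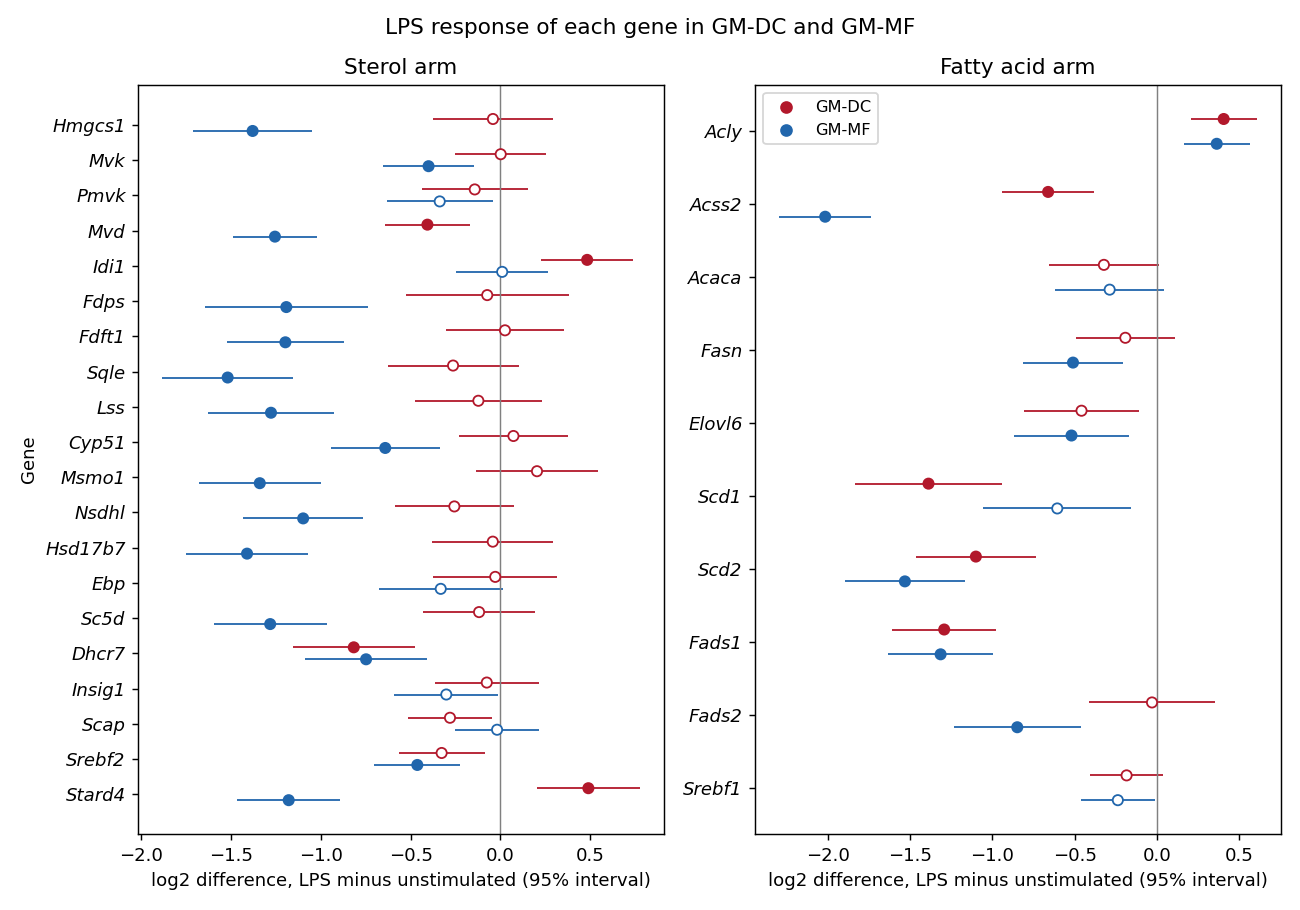
Log2 difference, LPS minus unstimulated, of each gene (rows) with its 95% interval, in GM-DC (red) and GM-MF (blue), sterol arm left and fatty acid arm right; filled points passed an adjusted p of 0.05. In the sterol arm 15 blue points are filled and lie left of 0, while most red points lie near 0; in the fatty acid arm Acss2, Scd2 and Fads1 lie left of 0 in both cell types.

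The LPS responses themselves were compared as an interaction, the response of GM-DC minus that of GM-MF, where a positive value means a higher response in GM-DC. In the sterol arm 12 of 20 genes had a positive interaction that passed, none a negative one, against 4.53% of all genes with a positive and 3.06% with a negative one, and 9 of the 12 were at least 2-fold, against 1.9% of all genes (1.35% in the negative direction). At an unadjusted p under 0.05, 14 of the 20 had an interaction, against 18.4% of all genes. The median was 0.85, against 0.02 over all genes. Stard4 had the largest, 1.67 ± 0.19 (adjusted p = 5.12e-05); it rose in GM-DC and fell in GM-MF. It was followed by Msmo1 at 1.54 ± 0.22 (adjusted p = 0.000451), Hsd17b7 at 1.37 ± 0.22 (adjusted p = 0.00117) and Hmgcs1 at 1.34 ± 0.22 (adjusted p = 0.00121). Sqle, Fdft1, Sc5d, Lss, Fdps, Mvd, Nsdhl and Cyp51 followed, with values from 1.26 to 0.71 and adjusted p from 0.00218 to 0.0427. Dhcr7, which fell in both cell types, had an interaction of -0.07 (95% interval -0.55 to 0.41, adjusted p = 0.936). The other 7 genes without a call (Mvk, Pmvk, Idi1, Ebp, Insig1, Scap and Srebf2) had 95% intervals between -0.59 and 0.84.

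Of the 12 calls, 9 held whichever array was left out. Cyp51 missed the threshold without any 1 of 9 arrays (0.61 to 0.76), and Fdps and Nsdhl each without any 1 of 8 (0.83 to 1.16 and 0.72 to 0.87). For 13 of the 20 sterol genes all 3 GM-MF arrays with LPS lay below the other 9 arrays, against 9.03% of all genes; Hmgcs1, Mvd, Fdft1, Sqle, Lss, Hsd17b7, Sc5d and Stard4 are those among them in the plot of sterol gene levels. The 7 others were Pmvk, Idi1, Msmo1, Ebp, Dhcr7, Insig1 and Scap. Msmo1 missed by a little, since its highest GM-MF array with LPS read 7.97 and its lowest GM-DC array 7.90.

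**Figure D2:**
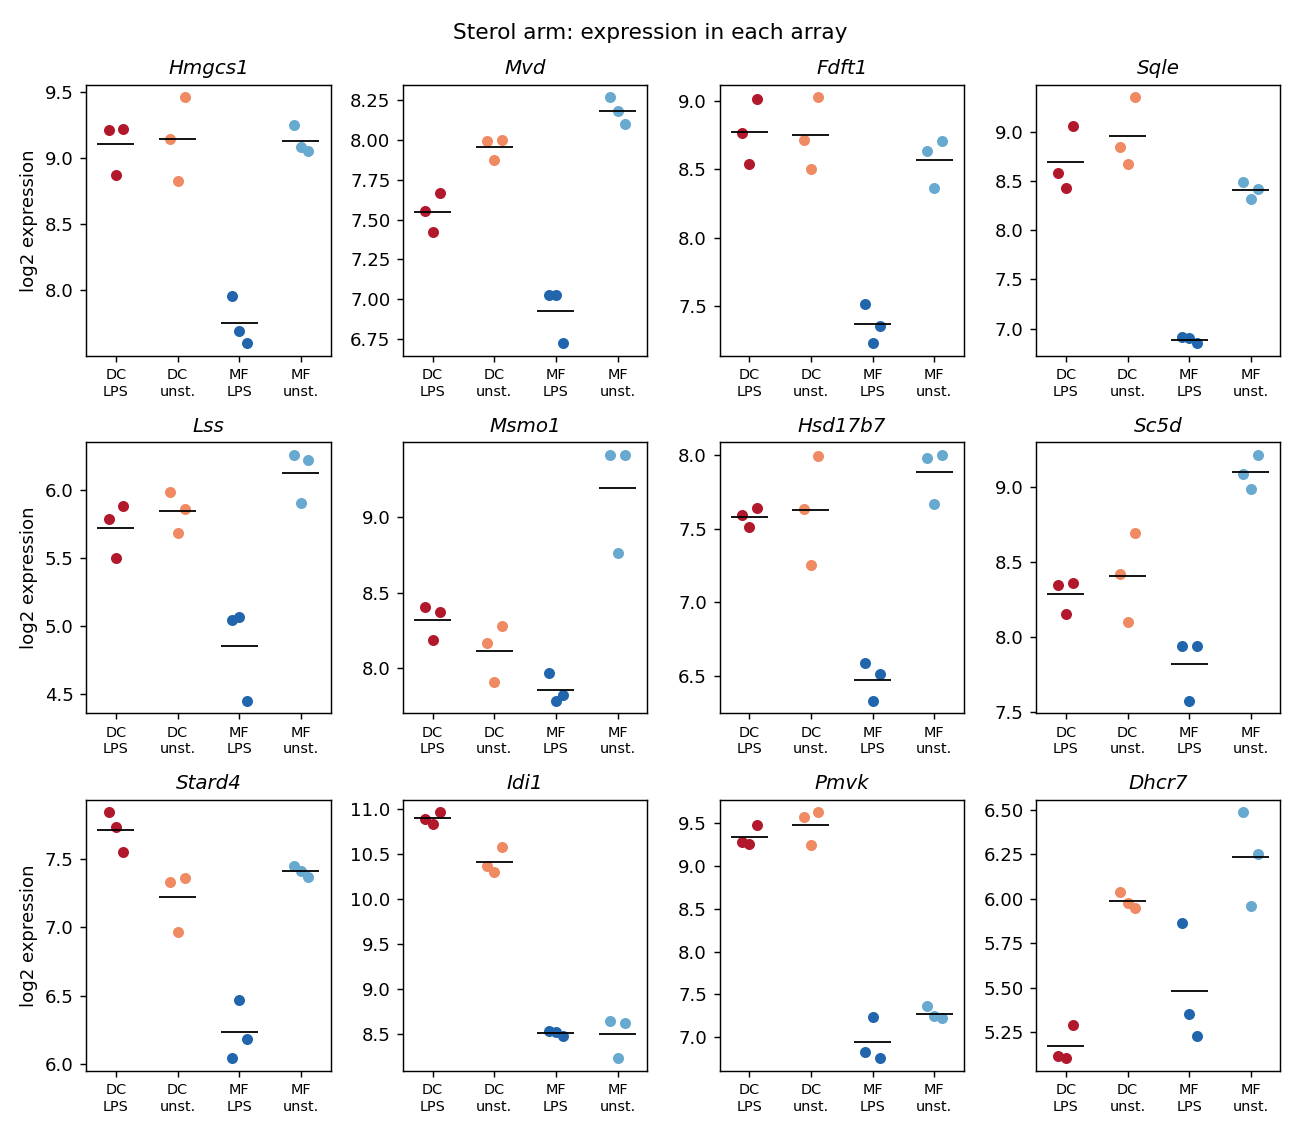
Log2 expression (vertical axis) of 12 sterol arm genes on each of the 12 arrays, by group; bars are the means of 3 arrays. Hmgcs1, Sqle and Stard4 are low on the 3 GM-MF arrays with LPS, Idi1 and Pmvk separate GM-DC from GM-MF, and Dhcr7 is lower with LPS in both.

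The stretches before the start sites of the genes with the largest interactions that had a promoter window are shown, because these genes moved together. Msmo1 is at chr8:64733579-64733828 on the minus strand, Hsd17b7 at chr1:169969206-169969455 on the minus strand, Acss2 (fatty acid arm) at chr2:155517793-155518042 on the plus strand and Hmgcs1 at chr13:119690101-119690350 on the plus strand (RefSeq, GRCm38.p6). Each is the 250 bases before the annotated start, 5′ to 3′ on the strand of the gene, and capitals mark matches, on either strand, to TCACNCCAC (a sterol regulatory element), CACGTG (an E-box), CCAAT (the box bound by NF-Y) or GGGCGG (a GC box).
Msmo1: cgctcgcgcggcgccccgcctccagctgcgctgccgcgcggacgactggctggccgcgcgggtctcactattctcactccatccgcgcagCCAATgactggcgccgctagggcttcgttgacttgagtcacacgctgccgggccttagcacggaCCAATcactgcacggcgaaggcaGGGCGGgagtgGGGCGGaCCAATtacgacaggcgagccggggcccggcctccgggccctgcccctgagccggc
Hsd17b7: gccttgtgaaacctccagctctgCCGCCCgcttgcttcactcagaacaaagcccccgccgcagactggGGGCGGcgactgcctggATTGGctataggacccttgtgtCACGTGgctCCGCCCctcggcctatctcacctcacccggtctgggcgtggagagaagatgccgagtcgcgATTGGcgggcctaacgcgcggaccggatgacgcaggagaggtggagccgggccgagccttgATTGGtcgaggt
Acss2: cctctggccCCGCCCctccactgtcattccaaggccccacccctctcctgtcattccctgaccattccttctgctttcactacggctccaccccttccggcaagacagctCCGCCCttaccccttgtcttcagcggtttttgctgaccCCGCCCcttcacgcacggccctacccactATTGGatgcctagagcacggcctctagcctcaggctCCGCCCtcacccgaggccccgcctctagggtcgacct
Hmgcs1: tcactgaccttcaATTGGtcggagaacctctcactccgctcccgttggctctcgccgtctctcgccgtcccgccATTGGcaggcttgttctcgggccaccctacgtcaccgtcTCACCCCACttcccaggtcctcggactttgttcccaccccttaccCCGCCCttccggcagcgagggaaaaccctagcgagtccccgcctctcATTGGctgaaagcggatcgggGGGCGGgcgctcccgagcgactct
Msmo1 and Hsd17b7 each hold 3 CCAAT boxes, Hsd17b7 also a CACGTG 143 bases before its start, and Acss2 holds 4 GC boxes and 1 CCAAT. Hmgcs1 holds a TCACNCCAC match 137 bases before its start, the only one among the 23 genes of both arms that had a window to search.

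Over windows from 250 bases before to 50 after the start, 23 of the 30 genes had a window, 16 in the sterol arm and 7 in the fatty acid arm. CCAAT occurred in 15 of 16 sterol genes and 4 of 7 fatty acid genes, against 41.7% of the 15614 measured genes with a window. GGGCGG also occurred in 15 of 16 and 4 of 7, against 52.9%. CACGTG occurred in 5 of 16 sterol genes (Hsd17b7, Insig1, Dhcr7, Sc5d and Scap) and 0 of 7 fatty acid genes, against 9.5%. TCACNCCAC occurred in 1 of 16 and 0 of 7, against 1.4%. CACGTG can share letters with the end of TCACNCCAC, but no 2 of the matches printed overlap. A match describes the sequence and is not a bound site, and no match says only that these letters are not in the window. Sterol genes that fell in GM-MF and genes that were not called shared them: Ebp and Idi1 each held 2 CCAAT boxes and 1 GC box.

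**Figure D3:**
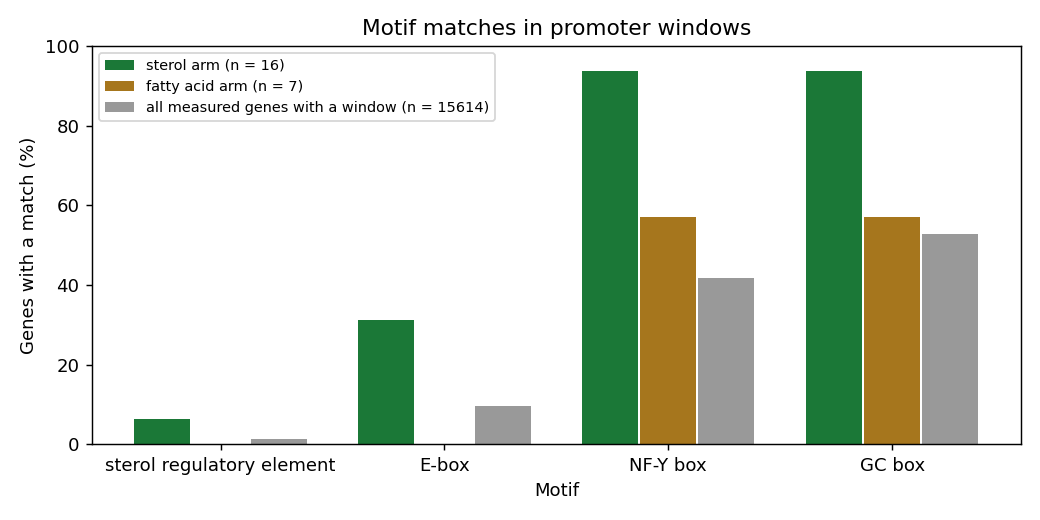
Share of genes (vertical axis, percent) whose promoter window holds each of 4 motifs, for the sterol arm (16 genes), the fatty acid arm (7) and all measured genes with a window (15614). The bars for the NF-Y box and the GC box reach 93.8% in the sterol arm.

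Between the cell types, the sterol arm differed far more with LPS than without it. With LPS 16 of 20 genes were higher in GM-DC than in GM-MF, 3 were lower and 1 was not called, against 20.9% of all genes that were higher and 15.4% that were lower; the median was 0.80, against 0.00 over all genes. Without LPS 5 were higher, 4 were lower and 11 were not called, against 18% and 16.2% of all genes, and the median was -0.13, against -0.01. At least 2-fold, 8 sterol genes were higher with LPS and none lower (6.4% and 6.5% of all genes); without LPS 2 were higher and 1 lower (5.69% and 7.02%). The comparison with LPS uses the same GM-MF arrays as the LPS response of GM-MF above, and the interaction is the difference of these comparisons too, so they are not separate evidence.

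A few genes separated the cell types whether or not LPS was given. Pmvk read 9.29, 9.26 and 9.48 in GM-DC with LPS, against 6.83, 7.24 and 6.75 in GM-MF with LPS, a 5.30-fold difference (2.40 ± 0.14, adjusted p = 1.78e-09). Unstimulated GM-DC read 9.58, 9.25 and 9.63, against 7.36, 7.25 and 7.22 in unstimulated GM-MF (4.63-fold, adjusted p = 4.52e-09). Both GM-DC groups thus stood about 2 log2 units above both GM-MF groups. Idi1 was 5.24-fold higher in GM-DC with LPS (adjusted p = 4.17e-10) and 3.77-fold without it (adjusted p = 4.65e-09). Its paralog Idi2, whose probes may share signal with it, was likewise higher, by 2.02 ± 0.16 with LPS and 1.16 ± 0.16 without. Mvk was higher by 0.98 ± 0.12 with LPS and 0.57 ± 0.12 without. Ebp and Insig1 went the other way in both states: Insig1 was lower in GM-DC by 0.54 with LPS (-0.54 ± 0.14, adjusted p = 0.00458) and by 0.77 without it (-0.77 ± 0.14, adjusted p = 0.000288), and Ebp differed by -0.49 ± 0.16 with LPS (adjusted p = 0.027) and -0.79 ± 0.16 without it (adjusted p = 0.00105).

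Msmo1 and Sc5d had opposite signs in the 2 states. Without LPS, Msmo1 read 8.16, 7.90 and 8.28 in GM-DC, against 9.41, 8.76 and 9.41 in GM-MF (-1.08 ± 0.16, adjusted p = 5.28e-05). With LPS it was higher in GM-DC, at 8.40, 8.19 and 8.37 against 7.97, 7.78 and 7.82 in GM-MF (0.46 ± 0.16, adjusted p = 0.032). Sc5d was lower in GM-DC without LPS (-0.69 ± 0.15, adjusted p = 0.00139) and higher with it (0.47 ± 0.15, adjusted p = 0.0196). The calls with LPS did not pass without any 1 of 4 arrays for Msmo1 (0.42 to 0.45) or any 1 of 3 for Sc5d (0.35 to 0.44), nor with cyclic loess scaling (0.33, adjusted p = 0.118, and 0.34, adjusted p = 0.107); Msmo1 also missed with median centring (0.41, adjusted p = 0.0836). In contrast Hmgcs1, Fdps, Fdft1, Lss, Cyp51, Hsd17b7, Stard4, Mvd and Nsdhl were not called without LPS (differences from -0.28 to 0.18) and were higher in GM-DC with it. Among these Stard4 was 2.79-fold higher with LPS, Fdft1 2.65-fold and Hmgcs1 2.56-fold; Nsdhl, at 0.57, missed the threshold without GM-MF LPS replicate 2 (0.45, adjusted p = 0.051). Hsd17b7 was called lower in unstimulated GM-DC when unstimulated GM-DC replicate 3 was left out (-0.44, adjusted p = 0.0294).

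The sterol controllers differed modestly. Srebf2 was higher in GM-DC by 0.47 ± 0.11 with LPS (adjusted p = 0.00335) and by 0.33 ± 0.11 without it (adjusted p = 0.0298). The second call missed the threshold without any 1 of 5 arrays (0.24 to 0.36). Scap was lower in GM-DC with LPS (-0.33 ± 0.11, adjusted p = 0.0265), a call lost without any 1 of 4 arrays (-0.34 to -0.23), and differed by -0.07 without LPS (adjusted p = 0.72). Ebp was called with LPS except without any 1 of 4 arrays (-0.51 to -0.40), and Sqle without LPS, at 0.55, except without unstimulated GM-DC replicate 3 (0.35) or unstimulated GM-MF replicate 2 (0.50).

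**Figure D4:**
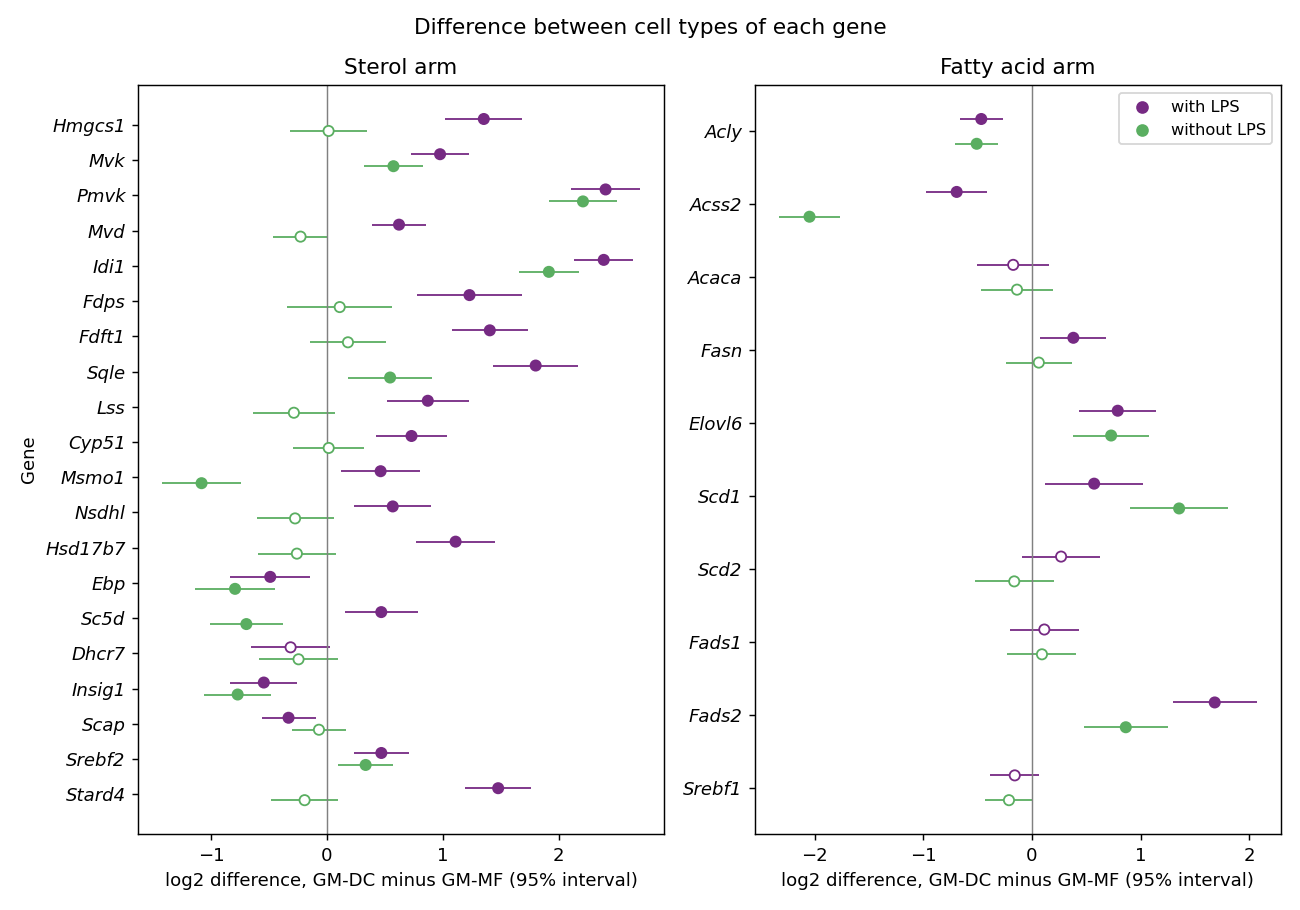
Log2 difference, GM-DC minus GM-MF, of each gene (rows) with its 95% interval, with LPS (purple) and without it (green), sterol arm left and fatty acid arm right; filled points passed an adjusted p of 0.05. With LPS 16 of 20 sterol genes are filled right of 0; Pmvk and Idi1 lie near 2 or above in both states, and Acss2 lies near -2 without LPS.

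The fatty acid arm responded to LPS in both cell types. In GM-MF 6 of 10 genes fell, 1 rose and 3 were not called, with a median of -0.56. In GM-DC 4 fell, 1 rose and 5 were not called, with a median of -0.39. Of all genes, 10.8% fell and 6.54% rose in GM-MF, and 4.49% fell and 5.23% rose in GM-DC. Acss2, Scd2 and Fads1 fell in both, as did Mvd and Dhcr7 in the sterol arm, against 2.35% of all genes that fell in both cell types. The mean of the 10 log2 values was 6.60, 6.47 and 6.56 in GM-DC with LPS, against 7.10, 6.99 and 7.12 in unstimulated GM-DC, and 6.52, 6.32 and 6.10 in GM-MF with LPS, against 7.19, 7.02 and 6.99 in unstimulated GM-MF.

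The 2 enzymes that supply cytosolic acetyl-CoA moved in opposite directions. Acss2, which makes it from acetate, read 5.96, 5.69 and 5.42 in GM-MF with LPS, against 7.89, 7.69 and 7.53 in unstimulated GM-MF. The groups lay about 2 log2 units apart, and the fall of 4.04-fold (-2.02 ± 0.13, adjusted p = 9.48e-08) was the 25th lowest of 19938 genes. In GM-DC, Acss2 read 4.99, 5.03 and 4.97 with LPS, against 5.71, 5.70 and 5.56 without it, a 1.58-fold fall (adjusted p = 0.00378). The GM-DC values with LPS lay not far above the array medians of 4.41 to 4.54, and RMA compresses differences of dim genes. Whether this limited the fall in GM-DC was not tested. Acly, which makes acetyl-CoA from citrate, was the only gene of the arm that rose: by 0.41 ± 0.09 in GM-DC (adjusted p = 0.0112) and by 0.36 ± 0.09 in GM-MF (adjusted p = 0.0132). It read 8.56, 8.52 and 8.32 in GM-DC with LPS, against 8.05, 8.03 and 8.10 without it, and 9.01, 8.89 and 8.90 in GM-MF with LPS, against 8.60, 8.57 and 8.54 without it. Neither pair of groups overlapped. The call missed the threshold in GM-DC without LPS replicate 1 (0.36) or LPS replicate 2 (0.38), and in GM-MF without LPS replicate 1 (0.33) or unstimulated replicate 3 (0.35).

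Of the 4 desaturases, 3 fell in GM-DC and 3 in GM-MF. Fads1, which adds a double bond to polyunsaturated chains, read 5.55, 5.33 and 5.87 in GM-DC with LPS, against 7.02, 6.77 and 6.83 in unstimulated GM-DC, a 2.45-fold fall (adjusted p = 3.79e-05). In GM-MF it read 5.52, 5.33 and 5.55 with LPS, against 6.88, 6.51 and 6.96 without it, a 2.49-fold fall (adjusted p = 1.84e-05). The 2 falls were nearly equal in size: the interaction was 0.02, with a 95% interval of -0.43 to 0.47 (adjusted p = 0.983). Scd2, a stearoyl-CoA desaturase, fell 2.14-fold in GM-DC (adjusted p = 0.00055), to 7.46, 7.21 and 7.41 against 8.55, 8.37 and 8.46 without LPS. In GM-MF it fell 2.89-fold (adjusted p = 1.51e-05), to 7.56, 6.92 and 6.79 against 8.76, 8.71 and 8.40. Its paralog Scd1, whose probes may share signal with it, read 8.01, 7.99 and 7.91 in GM-DC with LPS, against 9.50, 9.47 and 9.11 without it, a 2.62-fold fall (adjusted p = 0.000472). In GM-MF Scd1 read 7.68, 7.61 and 6.91 with LPS, against 8.32, 8.15 and 7.54 without it. These overlap, and the difference of -0.61 ± 0.21 was not called (adjusted p = 0.0627). With the replicate number as a block within each cell type it was called (adjusted p = 0.00138). Replicate 3 was the lowest array on both sides. Fads2, the desaturase that works before Fads1, fell 1.80-fold in GM-MF (adjusted p = 0.00357) and differed by -0.03 in GM-DC (95% interval -0.42 to 0.36, adjusted p = 0.967).

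The enzymes that build and lengthen the chain changed little. Fasn, fatty acid synthase, fell 1.42-fold in GM-MF (adjusted p = 0.0203), and Elovl6, which lengthens palmitate, 1.43-fold (adjusted p = 0.0412). The Fasn call was lost without any 1 of 3 arrays (-0.51 to -0.40) and the Elovl6 call without any 1 of 7 (-0.58 to -0.36); both were lost with median centring and with cyclic loess, and Elovl6 also with the replicate number as a block over all arrays (adjusted p = 0.0522). In GM-DC, Fasn differed by -0.19 (adjusted p = 0.557) and Elovl6 by -0.46 (adjusted p = 0.109). Acaca, the carboxylase that makes malonyl-CoA, was called in none of the 5 comparisons, with differences from -0.32 to -0.04, and neither was Srebf1, with differences from -0.24 to 0.05. The 95% interval of the Srebf1 response was -0.41 to 0.04 in GM-DC and -0.46 to -0.01 in GM-MF. With cyclic loess, Srebf1 was called lower in GM-DC than in GM-MF with LPS (-0.32, adjusted p = 0.0186) and without it (-0.29, adjusted p = 0.036). Without GM-MF LPS replicate 1, Acaca was called for LPS in GM-MF (-0.48, adjusted p = 0.0308).

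**Figure D5:**
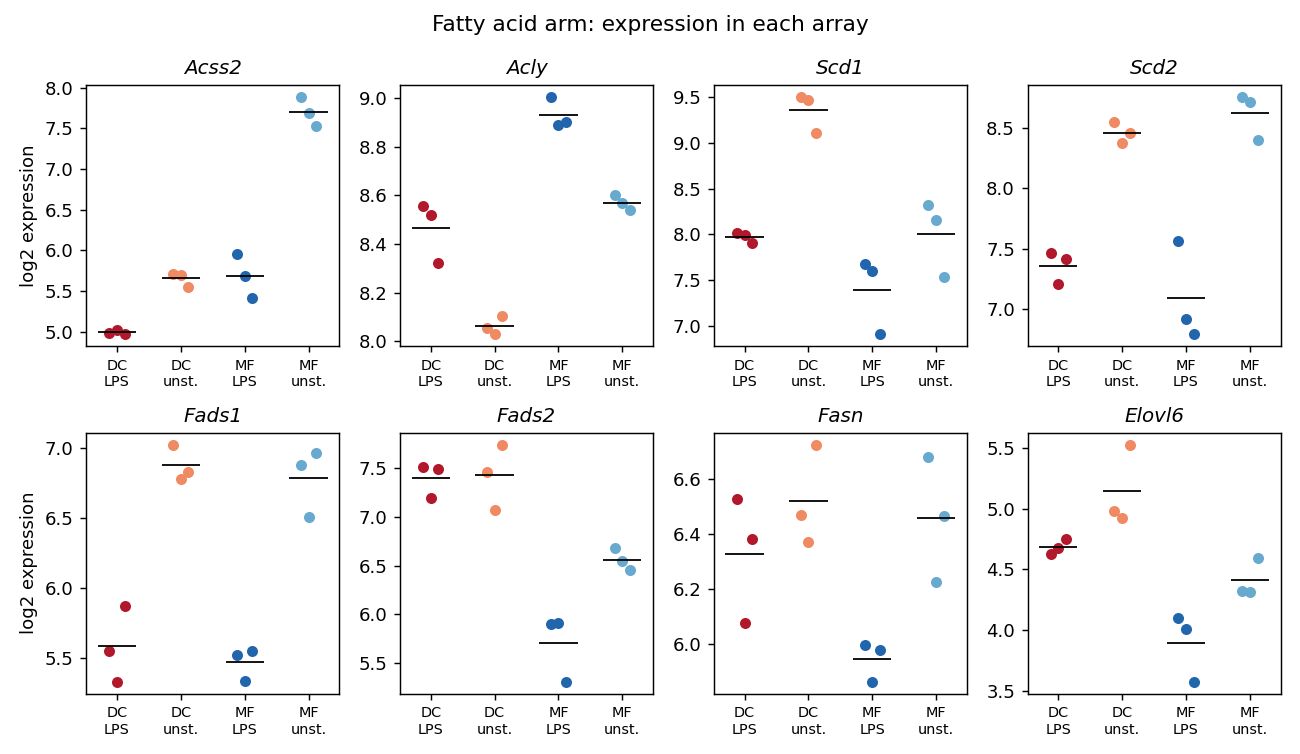
Log2 expression (vertical axis) of 8 fatty acid arm genes on each of the 12 arrays, by group; bars are the means of 3 arrays. Scd2 and Fads1 are lower with LPS in both cell types, Acly is higher with LPS in both, and Acss2 is highest in unstimulated GM-MF.

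Between the cell types, the fatty acid arm had no common direction. With LPS 4 of 10 genes were higher in GM-DC and 2 were lower, against 20.9% and 15.4% of all genes. Without LPS 3 were higher and 2 were lower, against 18% and 16.2%. The 2 lower genes in each state lie near the share of all genes, and nothing is read from these counts about the arm. Acss2 was lower in GM-DC by 0.69 with LPS (-0.69 ± 0.13, adjusted p = 0.000523) and 4.13-fold without it (adjusted p = 6.01e-09). Acly was lower in both states (-0.47 ± 0.09 and -0.51 ± 0.09). Fads2 was 3.21-fold higher in GM-DC with LPS (adjusted p = 1.88e-06), at 7.50, 7.19 and 7.48 against 5.91, 5.91 and 5.31 in GM-MF. Without LPS it was 1.82-fold higher (adjusted p = 0.00125), at 7.46, 7.07 and 7.74 against 6.68, 6.54 and 6.45. The 4 groups did not overlap between cell types in either state. Elovl6 was higher in GM-DC by 0.79 ± 0.16 with LPS and 0.73 ± 0.16 without. Scd1 was 2.56-fold higher without LPS (adjusted p = 8.73e-05) and 1.49-fold with it (adjusted p = 0.0444). With LPS the calls of Scd1 and of Fasn (0.38, adjusted p = 0.0472) were each lost without any 1 of 7 arrays, with values from 0.33 to 0.60 and from 0.28 to 0.41.

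Only Acss2 had an interaction that passed in the fatty acid arm, 1.35 ± 0.18 (adjusted p = 0.000263): LPS lowered it in both cell types and by 2.56-fold more in GM-MF. Scd1 had an interaction of -0.78 (95% interval -1.42 to -0.15, adjusted p = 0.149) and Fads2 of 0.82 (95% interval 0.27 to 1.36, adjusted p = 0.069). Both were called with the replicate number as a block within each cell type (adjusted p = 0.00489 for Scd1 and 0.0136 for Fads2), which made 3 genes called in place of 1. Scd2, at 0.43, was not called (95% interval -0.08 to 0.94, adjusted p = 0.387). Without GM-MF LPS replicate 1 its interaction was called (0.67, adjusted p = 0.0382). Scd2 was then also called higher in GM-DC than in GM-MF with LPS (0.51, adjusted p = 0.00801).

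Neighbouring genes of the sterol route, chosen as a list apart from the members, were 9 in number. In GM-MF 2 of the 9 fell with LPS and none rose, against 10.8% and 6.54% of all genes, and 4 of 9 differed at an unadjusted p under 0.05, against 26.9%. Lbr, which also reduces sterols beside its role in the nuclear envelope, fell 1.51-fold (adjusted p = 0.00311), and Aacs, which activates acetoacetate, fell 1.28-fold (adjusted p = 0.0267). The Aacs call was lost without any 1 of 4 arrays (-0.38 to -0.33). In GM-DC 2 rose and 1 fell, against 5.23% and 4.49% of all genes: Idi2 rose by 1.00 ± 0.16 on the log2 scale (adjusted p = 0.000834), Nus1, a subunit of the enzyme that makes dolichol, rose 1.94-fold (adjusted p = 0.000295), and Tm7sf2, a sterol reductase, fell 1.40-fold (adjusted p = 0.0223; lost without any 1 of 5 arrays, -0.50 to -0.43). The interaction was positive and called for Idi2, Lbr and Ggps1, which makes geranylgeranyl diphosphate, and 0 of 9 had a called negative one. Of all genes, 4.53% had a called positive and 3.06% a called negative interaction. At an unadjusted p under 0.05, 4 of 9 had an interaction, against 18.4% of all genes. With the replicate number as a block within each cell type, Nus1 was called too, for LPS in GM-MF (0.33, adjusted p = 0.044) and for the interaction (0.62, adjusted p = 0.0227).

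Among 15 genes of SREBP control and sterol uptake, 3 rose and 6 fell with LPS in GM-MF, against 6.54% and 10.8% of all genes, and 1 rose and 6 fell in GM-DC, against 5.23% and 4.49%. Npc1 and Lipa, which free cholesterol from lysosomes, fell in both: Lipa by 0.99 on the log2 scale in GM-DC (-0.99 ± 0.12, adjusted p = 6.32e-05) and -0.74 ± 0.12 in GM-MF (adjusted p = 0.00042). Lipa was 9.03-fold lower in GM-DC than in GM-MF with LPS. Lpin1, a phosphatidate phosphatase that also restrains SREBP, read 3.85, 3.82 and 3.61 in GM-MF with LPS, against 5.47, 5.05 and 5.20 without it, a 2.78-fold fall (adjusted p = 3.81e-05). These GM-MF values with LPS lay below the array medians. Lpin1 also fell in GM-DC (-0.72), a call lost in a fit on the 6 GM-DC arrays alone (adjusted p = 0.0618). That call was also lost without unstimulated GM-DC replicate 3 (-0.54), GM-DC LPS replicate 1 (-0.70) or GM-DC LPS replicate 2 (-0.56). Rnf139, a ubiquitin ligase of the endoplasmic reticulum, rose in both cell types, 1.63-fold in GM-DC (adjusted p = 0.00121) and 1.71-fold in GM-MF (adjusted p = 0.000292). Gramd1a, a sterol carrier at membrane contacts, rose 1.94-fold in GM-MF (adjusted p = 0.000199), differed by -0.43 in GM-DC (adjusted p = 0.0751, and 0.0158 with the replicate block within each cell type) and had the only called interaction of the list, -1.39 ± 0.20 (adjusted p = 0.000411). With that block the interaction of Lpin1 was called as well (0.75, adjusted p = 0.0163, against 0.099 without it). Without the block, 4.53% of all genes had a called positive and 3.06% a called negative interaction.

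Of 28 further genes of fatty acid synthesis, elongation and activation, 1 rose and 4 fell with LPS in GM-MF, near the 6.54% and 10.8% of all genes. In GM-DC 5 rose and none fell, against 5.23% and 4.49% of all genes, and 7 of 28 differed at an unadjusted p under 0.05, against 19.5%. Hacd2, a dehydratase of the elongation cycle, read 9.66, 9.67 and 9.12 in GM-DC with LPS, against 7.62, 7.64 and 7.30 without it, a 3.90-fold rise (adjusted p = 1.33e-06). In GM-MF it differed by 0.41 (adjusted p = 0.11, and 0.0267 with the replicate block within each cell type). Hsd17b12, a reductase of the same cycle, rose 2.17-fold in GM-DC (adjusted p = 0.000406). Slc25a1, the mitochondrial citrate carrier, rose 1.43-fold in GM-DC (adjusted p = 0.00729). In GM-MF the gene that rose was Elovl2, an elongase of polyunsaturated chains, at 5.01, 4.95 and 5.11 with LPS against 3.52, 3.32 and 3.22 without it (3.18-fold, adjusted p = 1.11e-07). Me1, malic enzyme, fell 1.93-fold there (adjusted p = 0.00132) and Mid1ip1, which activates acetyl-CoA carboxylase, 1.62-fold (adjusted p = 0.00202). The Elovl2 values without LPS lay below the array medians, and no background call was available for any gene.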

How the data were processed

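RNA of 12 cultured mouse cell samples was measured on Affymetrix Mouse Gene 1.0 arrays, 1 array a sample. The submitters' processing notes name RMA and R 3.0.2. The deposited values ran between 1.18 and 13.7 and were taken as log2, since no source used here gives the log base. RMA sets all arrays to 1 distribution and compresses differences of dim genes. No genome build is given.

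Of 35556 probe sets, 21789 had 1 gene symbol in the platform annotation, 1621 several and 12146 none; 21698 matched RefSeq (GRCm38.p6) by Entrez identifier, and 0 symbols changed. For 999 genes with several probe sets the one with the highest mean was kept. This left 19938 genes, used as deposited with no filter.

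limma 3.58.1 in R 4.3.3 fitted 4 group means to all 12 arrays (8 residual degrees of freedom), with eBayes without trend and two-sided tests. Each of 5 comparisons had its p-values adjusted by Benjamini-Hochberg across the 19938 genes, with a threshold of 0.05. The procedure was tested on simulated data. The number of arrays limits the precision.

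The members and lists were chosen with earlier results of these data known. Every measured member is named. From each other lipid list, up to 4 called genes with the largest differences in each comparison (up to 2 per direction) could be named, and those with a called interaction of at least 1. Promoters were printed for up to 6 members with the largest called interactions. The other lists were further sterol and isoprenoid synthesis, SREBP control and sterol uptake, further fatty acid genes, triglyceride and lipid droplet genes, oxysterol and LXR genes, fatty acid oxidation, cell cycle, and cell markers.

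Replicate numbers were checked for pairing by the correlation of deviations from group means. Between LPS and unstimulated arrays of the same number it was 0.119 to 0.363 in GM-DC and 0.104 to 0.257 in GM-MF, over 0.1 in all 3 pairs of each. Between arrays of different numbers it was -0.25 to 0.164 in GM-DC and -0.216 to 0.0254 in GM-MF. Of the 3 LPS arrays, 2 in GM-DC and 3 in GM-MF correlated best with their own number. The numbers may thus pair samples within a cell type, less clearly in GM-DC, where the ranges overlap. Between GM-DC and GM-MF arrays of the same number it was -0.00 to 0.16 with LPS and -0.17 to 0.01 without. Between different numbers it was -0.135 to 0.0512 and -0.13 to 0.146. Of the 3 GM-DC arrays, 2 with LPS and 1 without correlated best with their own number, so pairing across cell types was not clear. The blocked fits, array scaling, a filter on low values, the mean of a gene's probe sets, trend with robust eBayes, fits on 6 arrays, leaving out each array and a 2-fold rule were tried as alternatives. A dimmer probe set for Idi1, Fdft1 and Acaca was added after seeing the data.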

Additional observations from a re-analysis of the deposited data

Results flagged for a closer look

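The LPS response differed between GM-DC and GM-MF, by the interaction test, for 13 of the 30 genes. Of all genes, 4.53% had a called positive and 3.06% a called negative interaction. The values, GM-DC response minus GM-MF response on the log2 scale, were 1.67 for Stard4, 1.54 for Msmo1, 1.37 for Hsd17b7, 1.35 for Acss2, 1.34 for Hmgcs1, 1.26 for Sqle, 1.22 for Fdft1, 1.16 for Sc5d, 1.16 for Lss, 1.12 for Fdps, 0.85 for Mvd, 0.84 for Nsdhl and 0.71 for Cyp51. Acss2 is the only one of them in the fatty acid arm.

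Among the other lipid genes named, the interaction was positive for Mgll (2.29), Hacd2 (1.55), Ppard (0.96), Mid1ip1 (0.92), Idi2 (0.86), Pnpla2 (0.78), Slc25a1 (0.76), Lbr (0.70) and Ggps1 (0.54). It was negative for Ch25h (-2.17), Elovl2 (-1.57), Dgat2 (-1.46), Gramd1a (-1.39) and Plin2 (-1.21). Ch25h, cholesterol 25-hydroxylase, rose in GM-MF and differed by 0.01 in GM-DC. Mid1ip1 missed the threshold when its probe sets were averaged (0.46, adjusted p = 0.0864). Idi2 and Ggps1 each missed it without any 1 of 8 arrays, and Lbr without any 1 of 5. With the replicate number as a block within each cell type, 4 further named genes had a called positive interaction: Me1 (0.77, adjusted p = 0.00894), Hsd17b12 (0.76, adjusted p = 0.0162), Lpin1 (0.75, adjusted p = 0.0163) and Nus1 (0.62, adjusted p = 0.0227).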

How the results depend on the processing

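Counts of called members stayed within 1.5 times the reported ones in 198 recomputed values and moved further in 16, and no called difference changed sign. Asking also for 2-fold left fewer: GM-DC against GM-MF with LPS gave 8 sterol and 1 fatty acid genes (19 and 6 reported), without LPS 3 and 2 (9 and 5), LPS in GM-DC 0 and 3 (4 and 5), and LPS in GM-MF 3 fatty acid genes (7). For the interaction of the fatty acid arm, 1 gene as reported became 2 with the replicate number as a block, 3 with the replicate block within each cell type, 2 among genes above the median and 2 with trend and robust eBayes. Leaving out 1 array gave 1 to 2 such genes, and 1 to 4 sterol genes called for LPS in GM-DC: 1 without GM-DC LPS replicate 1 and 2 without unstimulated GM-DC replicate 1. Of 13 called interactions of members, 13 were kept under both blocks, 11 with median centring, 11 with cyclic loess and 10 to 13 with 1 array left out. The replicate block, over all arrays or within each cell type, changed no calls of members other than those of Scd1, Fads2 and Elovl6 given above. Rescaling moved the median over all genes by at most 0.05. No background call was available, so differences of dim genes are ratios of signals; 3 arrays a group limit precision.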

Other observations

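Of 21 genes of triglyceride synthesis and lipid droplets, 2 rose and 5 fell with LPS in GM-MF, against 6.54% and 10.8% of all genes, and 3 rose and 3 fell in GM-DC, against 5.23% and 4.49%. Dgat2, which makes triglyceride from diglyceride, read 5.74, 6.19 and 6.23 in GM-MF with LPS, against 4.81, 4.62 and 4.39 without it, a 2.73-fold rise (adjusted p = 1.04e-05). In GM-DC it differed by -0.01 (adjusted p = 0.992). Plin2, a coat protein of lipid droplets, fell 2.59-fold in GM-DC (adjusted p = 7.2e-05) and differed by -0.16 in GM-MF (adjusted p = 0.635); with LPS it was 10.7-fold lower in GM-DC than in GM-MF. Mgll, monoglyceride lipase, rose in GM-DC to 7.68, 7.77 and 6.46, against 6.00, 6.01 and 5.66 without LPS (2.66-fold, adjusted p = 0.00199), and fell 1.84-fold in GM-MF (adjusted p = 0.0267; lost without any 1 of 5 arrays, -0.92 to -0.75). Pnpla2, the triglyceride lipase, fell 1.56-fold in GM-MF (adjusted p = 0.000569).

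Of 9 oxysterol and LXR genes, 1 rose and 2 fell with LPS in GM-MF, against 6.54% and 10.8% of all genes, and none rose and 1 fell in GM-DC, against 5.23% and 4.49% (2 of 9 at an unadjusted p under 0.05, against 19.5%). The gene that rose was Ch25h, which makes 25-hydroxycholesterol, known to hold SREBP back: it read 11.18, 11.22 and 11.47 in GM-MF with LPS, against 8.93, 9.21 and 9.17 without it (4.55-fold, adjusted p = 1.18e-06). In GM-DC it read 4.63, 5.16 and 4.22 with LPS, against 4.85, 4.61 and 4.51 without it (0.01, 95% interval -0.39 to 0.41, adjusted p = 0.99). Its part in the sterol gene values was not tested.

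Of 18 genes of fatty acid oxidation, none rose and 7 fell with LPS in GM-MF, against 6.54% and 10.8% of all genes, and 9 of 18 differed at an unadjusted p under 0.05 in limma, against 26.9%. In GM-DC 1 rose and 4 fell, against 5.23% and 4.49% of all genes. Acadm, a medium-chain acyl-CoA dehydrogenase, fell in both, 1.55-fold in GM-DC (adjusted p = 0.00267) and 1.54-fold in GM-MF (adjusted p = 0.00172). Ppard, a nuclear receptor that drives oxidation genes, fell 1.95-fold in GM-MF (adjusted p = 5.98e-05) and differed by -0.01 in GM-DC (adjusted p = 0.991).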
